A study of Rattus norvegicus with 2 samples.

Results

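Mural cells are the contractile cells that lie on the outer side of blood vessels: pericytes on capillaries and smooth muscle cells on larger vessels. Here they were chosen by their RNA in single-cell libraries of rat cartilage. A cell was taken as mural when Rgs5, Kcnj8, Notch3 and Myh11 together had at least 5 UMIs (unique molecular identifiers, each counting 1 RNA molecule captured from that cell), when the endothelial genes Emcn, Plvap and Cdh5 together had at most 1 UMI, and when Lyz2, a lysozyme gene of myeloid cells, was under 20000 CPM (UMIs per 1000000 UMIs of the cell). The rule took 58 of 14078 cells: 21 of 5456 in the control library and 37 of 8622 in the library of collagen-induced arthritis (CIA). The tissue came from Lewis rats. Control rats had no treatment and are called sham in the series' design text. CIA rats had been given type II collagen with Complete Freund's Adjuvant, which provokes an autoimmune arthritis, and were collected on day 14. The labels state neither how many animals went into a library nor their age or sex. With 1 library per group, no difference between the groups has a replicate check. Intervals below are 95% intervals that cover counting error only.

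Pericytes and vascular smooth muscle form a continuum. Pericytes are embedded in the basement membrane they share with the endothelium, are recruited by PDGF signalling through the receptor encoded by Pdgfrb, and carry the proteoglycan encoded by Cspg4 (NG2). Smooth muscle cells narrow the vessel with actin (Acta2), myosin (Myh11) and their regulators, and Notch3 maintains them. Articular cartilage itself holds no vessels, which lie in the synovium and bone beside it. The labels do not say which pieces were taken. Among all non-mural cells, 11 chondrocyte markers such as Col2a1 and Acan held 0.271% of UMIs in the control library and 0.0298% in the CIA library.

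Mural cells made up 0.385% of control cells (exact binomial interval 0.238 to 0.588) and 0.429% of CIA cells (0.302 to 0.591), shares whose intervals overlap. Their summed depth was 222752 UMIs in the control library and 283589 in the CIA library. Control mural cells were deeper, with a median of 8991 UMIs (6361 to 25594) against 6008 (4508 to 31054) in CIA. All cells had medians of 11873 and 10541. The libraries shared 52 cell barcodes, of which 0 were mural. Scrublet, a doublet caller, marked 62 control and 166 CIA cells as doublets, among them 0 control mural cells and 1 CIA mural cell.

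The 4 summed genes differed greatly in weight, and they are given as a description, since they chose the cells. Rgs5, a regulator of G protein signalling that marks pericytes, carried most of the sum: it ran from 0 through a median of 34 to 164 UMIs per cell in control and from 5 through 36 to 129 in CIA. Myh11, the smooth muscle myosin heavy chain, ran from 0 through 5 to 16 in control and from 0 through 2 to 19 in CIA. Kcnj8, a pore subunit of the ATP-sensitive potassium channel of pericytes, was seen in 9 of 21 and 18 of 37 cells with at most 6 UMIs. Notch3 was seen in 4 and 11 cells with at most 3 UMIs. The sum had a median of 38 in control and 41 in CIA, far from the limit of 5 for most cells. Just inside the limit, 2 control cells had a sum of 5, 1 a sum of 6 and 1 a sum of 8, and 1 CIA cell a sum of 8. Just outside, 5 CIA cells had a sum of 4, and 8 control and 3 CIA cells a sum of 3. Of the cells with a sum of at least 5, the endothelial limit left out 10 control and 4 CIA cells, and the Lyz2 limit applied to 2 in each library.

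**Figure D1:**
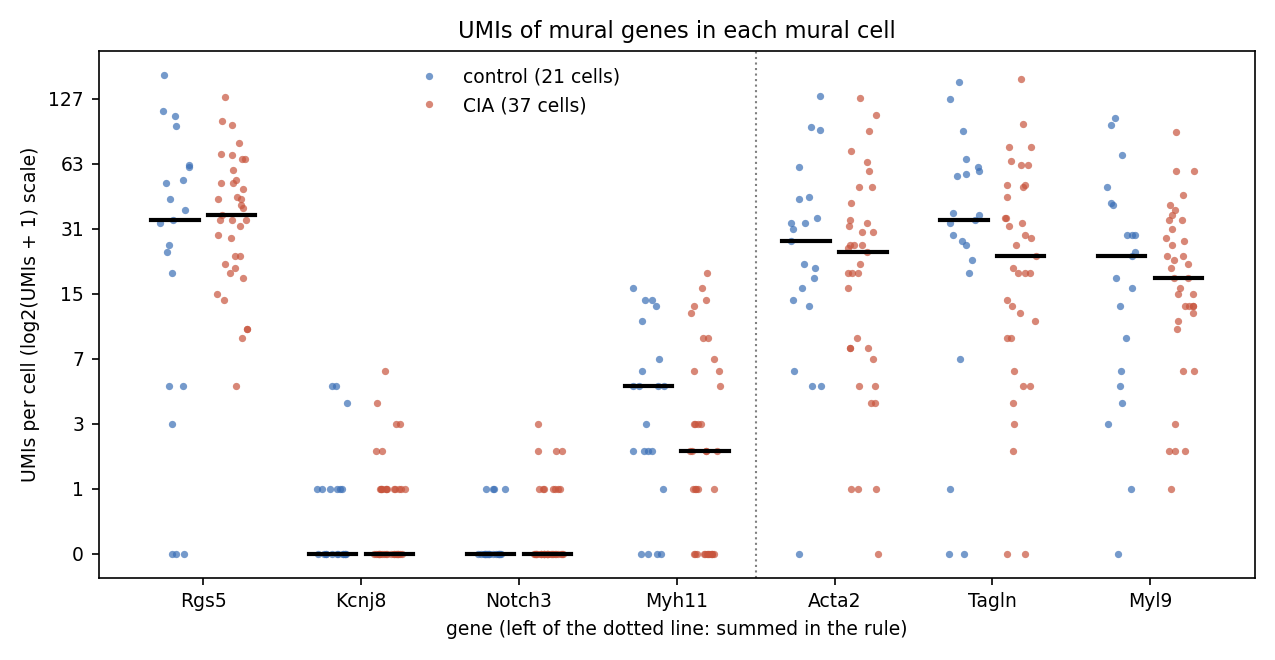
UMIs per mural cell of the 4 summed genes and of Acta2, Tagln and Myl9, on a log2(UMIs + 1) scale, with 1 point per cell (21 control, 37 CIA) and black bars at the medians. Rgs5 had 0 UMIs in 3 control cells and in no CIA cell, and Acta2, Tagln and Myl9 were high in most cells of both libraries.

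Contractile genes outside the sum were high in nearly all of these cells. Acta2, smooth muscle alpha actin, is a label marker that the rule did not use. It had UMIs in 20 of 21 control and 36 of 37 CIA mural cells and stood at 3322 and 3872 CPM. In endothelial cells it stood at 20.1 and 22.7 CPM, in fibroblasts at 10.6 and 13.1 and in macrophages at 4.56 and 3.74. These 3 reference sets were taken by marker UMIs in the same libraries (675, 2937 and 378 control cells, 549, 4353 and 957 CIA cells). Each needed at least 5 UMIs: of Emcn, Plvap and Cdh5 for endothelial cells, of Pdgfra, Lum and Dpt for fibroblasts, of C1qa, C1qb and C1qc for macrophages. All had at most 1 UMI of the 4 summed genes. Endothelial cells and fibroblasts also had Lyz2 under 20000 CPM. The Acta2 level of mural cells lay over 100 times above each reference in both libraries. Rgs5 and Myh11 are held low in the reference cells by how those were chosen, and Acta2 is not. The RefSeq promoter window of Acta2, 250 bases before to 50 after the annotated start, is shown because this actin defines the contractile phenotype and moved cell by cell with Tagln and Myl9. It lies at chr1:241172454-241172753 on the minus strand of build GRCr8, whereas the files use mRatBN7.2.
Acta2: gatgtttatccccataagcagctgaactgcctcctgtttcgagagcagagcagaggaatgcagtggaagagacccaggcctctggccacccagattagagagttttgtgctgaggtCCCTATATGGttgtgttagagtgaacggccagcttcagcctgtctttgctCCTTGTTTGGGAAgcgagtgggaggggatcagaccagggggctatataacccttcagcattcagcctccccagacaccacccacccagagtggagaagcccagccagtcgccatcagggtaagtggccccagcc

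Capitals mark 2 stretches that match the CArG box, the serum response element of smooth muscle genes, with 1 mismatch each, at bases -134 to -125 and -84 to -75 from the start, and the second of them overlaps the letters TGGGAA at -77 to -72. TGGGAA is the core of the site that RBPJ, the DNA-binding partner of Notch, can recognise. Both strands were searched. The window of Actg2, the enteric smooth muscle actin, is at chr4:117593990-117594289 on the minus strand and holds TGGGAA at -142 to -137. That of Rgs5, at chr13:84380827-84381126 on the plus strand, holds neither match and is printed because Rgs5 carried most of the rule's sum.
Actg2: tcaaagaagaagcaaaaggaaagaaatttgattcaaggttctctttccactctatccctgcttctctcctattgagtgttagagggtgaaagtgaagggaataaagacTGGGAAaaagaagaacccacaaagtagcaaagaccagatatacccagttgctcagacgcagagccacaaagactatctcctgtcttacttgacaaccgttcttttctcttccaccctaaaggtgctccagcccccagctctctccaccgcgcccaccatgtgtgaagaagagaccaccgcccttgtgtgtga
Rgs5: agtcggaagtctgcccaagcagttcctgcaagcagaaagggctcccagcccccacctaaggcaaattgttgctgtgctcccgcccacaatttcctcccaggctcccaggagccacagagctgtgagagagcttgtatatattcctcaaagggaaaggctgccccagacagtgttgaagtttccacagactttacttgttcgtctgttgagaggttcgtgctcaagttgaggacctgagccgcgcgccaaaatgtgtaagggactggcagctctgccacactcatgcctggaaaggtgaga

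Such matches were common. Of 33469 promoter windows of the same length, 1.64% held an exact CArG box, 21.3% a CArG box with at most 1 mismatch and 25.7% TGGGAA. Among the contractile genes with Myh11, 19 of 24 matched the table with 20 windows, of which 0 had an exact CArG box, 45% one with at most 1 mismatch and 40% TGGGAA. The pericyte genes with Rgs5, Kcnj8 and Notch3 gave 14 windows, with 28.6% for the mismatched CArG box and 28.6% for TGGGAA. Of 19 windows of immediate early genes, 21.1% held an exact CArG box. A match is a run of letters and not a shown site, and no match speaks only of this window.

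The other thin filament and myosin genes were at like levels. Tagln, transgelin, an actin-binding protein of smooth muscle, ran from 0 through 34 to 152 UMIs per control cell and from 0 through 23 to 156 per CIA cell, which gave 4198 and 4217 CPM against at most 27.2 CPM in any reference. Myl9, the regulatory myosin light chain, stood at 2725 and 2969 CPM against at most 23.2. Both marked nearly every mural cell, with Tagln seen in 19 and 35 cells and Myl9 in 20 and 37. Desmin (Des), the intermediate filament of muscle, stood at 399.6 and 518 CPM, Mylk, the myosin light chain kinase, at 319 and 342, and Actg2 at 418 and 631. Cnn1 (calponin) and Lmod1 (leiomodin), which mark mature smooth muscle, were seen in 10 and 10 and in 10 and 13 cells, with at most 9 UMIs each. Skeletal muscle markers were at 0: none of its listed members, Ckm, Acta1 and Mylpf among them, had a UMI in any mural cell of either library.

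The genes outside the sum with the largest ratio of mural to all other cells, by the smaller of the 2 libraries, included less familiar names. Spink8, a Kazal-type protease inhibitor, led the ranking with 215 CPM (159 to 286) in control and 201 (152 to 260) in CIA mural cells, and it was at most 0.19 CPM in each reference. Egflam, which encodes the matrix protein pikachurin, followed with 103 and 81.1 CPM. Next came Cnn1, Lmod1, Actg2, Acta2, Tagln, Hrc and Myl9. Then came Heyl, a Notch target gene, Tnnt2, the cardiac troponin T, Slc2a4, the insulin-responsive glucose transporter, Higd1b, Art3 and Itga7, a laminin-binding integrin. Spink8 had UMIs in 12 of 21 and 20 of 37 mural cells. Tnnt2 stood at 139 and 268 CPM, Higd1b at 440 and 808 and Itga7 at 108 and 222. By the size rule (at least 100 UMIs over both sums, a ratio of at least 2-fold and an interval wholly beyond 1.5-fold), 3.04% of 11782 genes were higher and 3% lower in mural than in other control cells, and 5.74% and 3.8% of 11909 in CIA. The rule for the cells shapes these shares, so they are given as a description.

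**Figure D2:**
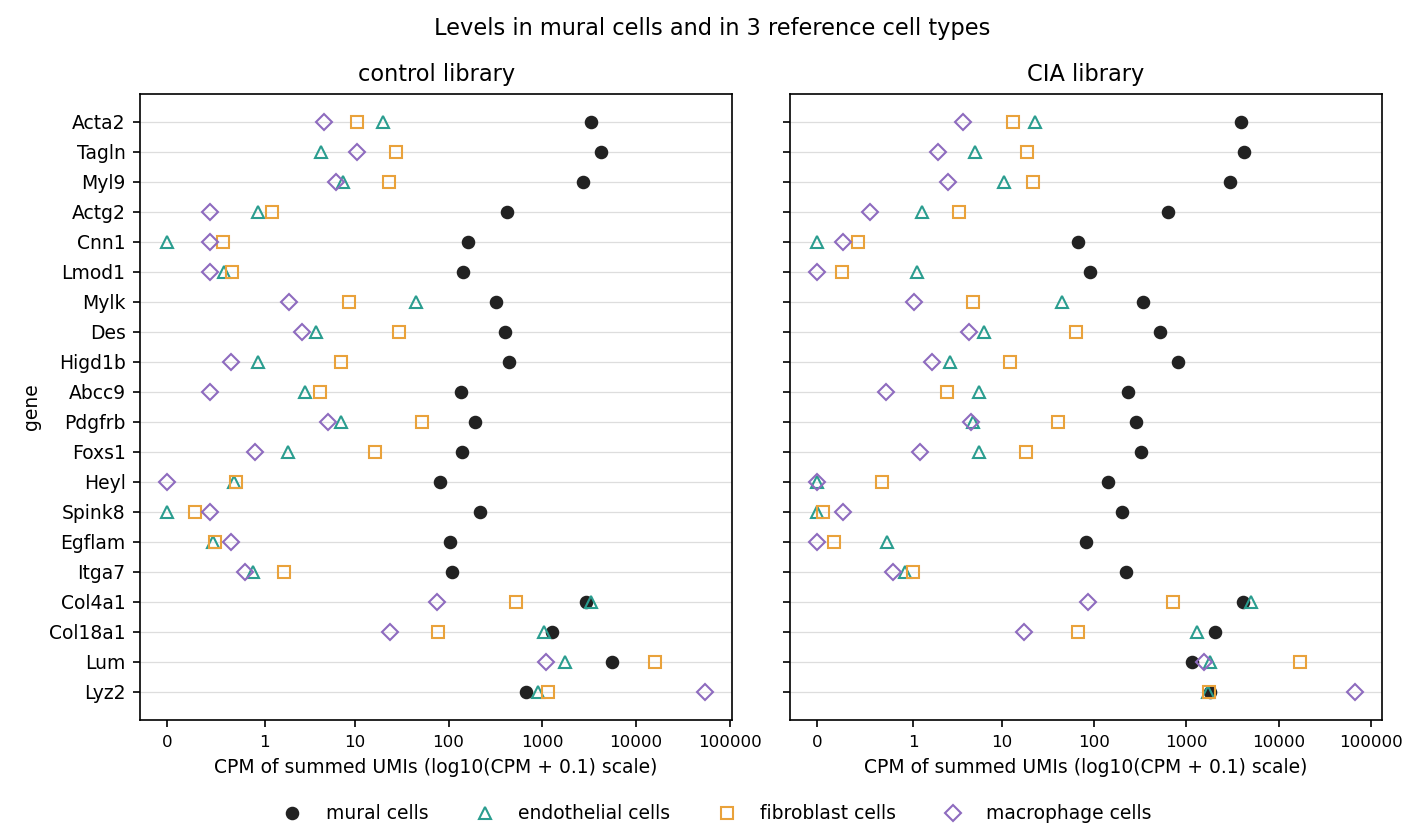
CPM of summed UMIs in mural cells (filled circles) and in endothelial, fibroblast and macrophage cells (open symbols) of each library, for 20 genes on a log10(CPM + 0.1) scale. Contractile genes, pericyte genes and Spink8 were highest in mural cells, Col4a1 lay near the endothelial level, and Lum and Lyz2 were highest in fibroblasts and macrophages. The choice of cells fixes these last orders in part, since Lum helped choose the fibroblasts and Lyz2 was limited in all but macrophages.

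Pericyte genes were present at lower levels. The mitochondrial gene Higd1b and Cox4i2, a cytochrome oxidase subunit, had UMIs in 14 and 19 control and 32 and 35 CIA cells. Pdgfrb was seen in 15 and 29 cells, at 193 and 286 CPM against at most 52.1 in fibroblasts. Abcc9, the regulatory partner of Kcnj8 in the potassium channel, stood at 135 and 236 CPM. Vtn (vitronectin) was at 53.9 and 113 CPM and at most 0.317 in any reference. Not every listed gene set mural cells apart: Mcam stood at 202 and 480 CPM against 311 and 446 in endothelial cells, and Ebf1 at 89.8 and 67.0 against 48.1 and 43.3. Cox4i2 and Ndufa4l2 were also expressed in fibroblasts, at 250 and 194 CPM for Cox4i2.

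Some basement membrane genes lay near or above their endothelial level, but the list did not set mural cells apart from fibroblasts. It held 1.97% and 2.24% of UMIs in mural cells and 1.59% and 1.98% in endothelial cells. In fibroblasts it held 2.64% and 2.39%. Col4a1, a chain of type IV collagen, stood at 2940 and 4104 CPM, beside 3340 and 4988 in endothelial cells and 522 and 718 in fibroblasts. Col18a1, the endostatin precursor, stood at 1279 and 2052 CPM beside 1054 and 1305 in endothelial cells. Sparc, a collagen-binding glycoprotein, at 13248 and 13065 CPM, and Mgp, the inhibitor of vascular calcification, at 9293 and 10857, were among the most abundant. Mgp was above its fibroblast level of 3564 and 2746 CPM. Fibroblast collagens were lower than in fibroblasts: Col1a1 was at 6954 and 5307 CPM against 26234 and 22436.

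Signalling genes were sparse at this depth. Heyl, the Notch effector of mural cells, had 18 and 40 UMIs over the mural cells and at most 0.448 CPM in any reference. Jag1, a Notch ligand, had 13 and 27 UMIs, and Nrarp, a feedback inhibitor of Notch, 15 and 40. In the PDGF and angiopoietin axis, Angpt2, the ligand that loosens pericyte contact, stood at 108 and 176 CPM beside 47.5 and 43.3 in endothelial cells. Among receptors for vasoactive ligands, Ednra (endothelin) had 24 and 44 UMIs, Agtr1a (angiotensin) 18 and 31 and Ptgir (prostacyclin) 5 and 17. Il34, a ligand of the macrophage growth factor receptor, stood at 112 and 169 CPM beside 18.1 and 14.9 in fibroblasts. Myocd, the coactivator of smooth muscle genes, had 1 UMI in each library. None of the genes in the Notch, vasoactive receptor, calcium and potassium or chemokine lists reached 100 UMIs over both mural sums, so CIA and control could not be compared for them.

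The mural cells spread along an axis from high to absent Myh11. At least 3 Myh11 UMIs were seen in 12 of 21 control cells (57.1%, 34.0 to 78.2) and in 15 of 37 CIA cells (40.5%, 24.8 to 57.9), and 0 in 4 and 12 cells. Depth moved with this split. Cells with at least 3 had a median of 10198 and 6981 UMIs in all, and those with 0 had 7724.5 and 5370. After each cell was thinned to 4000 UMIs, 38.1% and 27.0% had at least 3. The intervals of the 2 libraries overlapped in each form, and their difference was not tested.

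Several genes were higher in both libraries in cells with at least 3 Myh11 UMIs than in cells with 0. The named genes were ranked by this contrast. Mustn1, a small nuclear protein of the musculoskeletal system, stood at 846 against 20.8 CPM in control, where the cells without Myh11 held 1 UMI, and at 624 against 110 in CIA. The CIA ratio was 5.65 (2.73 to 13.6). C1qtnf1, a secreted protein with a C1q domain, stood at 529 against 62.5 CPM in control and 1040 against 442 in CIA. Sparcl1, a matrix glycoprotein, stood at 2605 against 313 and 2197 against 1173. Also on this side were Mylk, Actg2, Tpm1 (tropomyosin), Ckb (creatine kinase), Pdgfa, Rras and Hopx. In the opposite direction S100a10, an annexin partner, stood at 1080 against 3563 CPM in control and 1190 against 2732 in CIA. Lum, the fibroblast proteoglycan lumican, stood at 3126 against 14879 and at 741 against 2180. The control side of each of these contrasts rests on 4 cells without Myh11, of which cells 10 and 14 were rich in fibroblast RNA, as described next, and cell 14 alone held 25594 of their 47988 UMIs. Without the cells rich in other RNA, 2 control cells without Myh11 were left. Mustn1 then stood at 902 against 64.7 CPM in control, Sparcl1 at 2813 against 906 and S100a10 at 1100 against 4013, in the same directions. C1qtnf1 had 69 UMIs against 0. Lum turned to 1862 against 1036 CPM in control, and Rras to 281 against 388, so their direction in control came with those cells. In CIA, Lum was at 741 against 2208 without them and Rras at 408 against 179. This setting was chosen after seeing the data.

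Within libraries, the contractile genes moved together from cell to cell. On log2(CPM + 50), Acta2 and Tagln had Pearson r of 0.83 over 21 control cells and 0.78 over 37 CIA cells, with Spearman rho of 0.68 and 0.83. Acta2 and Rgs5 had r of 0.56 and 0.36, with rho of 0.35 and 0.16, and Acta2 and Higd1b r of -0.00 and -0.05. These cells share a library and its preparation, so the values describe these libraries only.

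**Figure D3:**
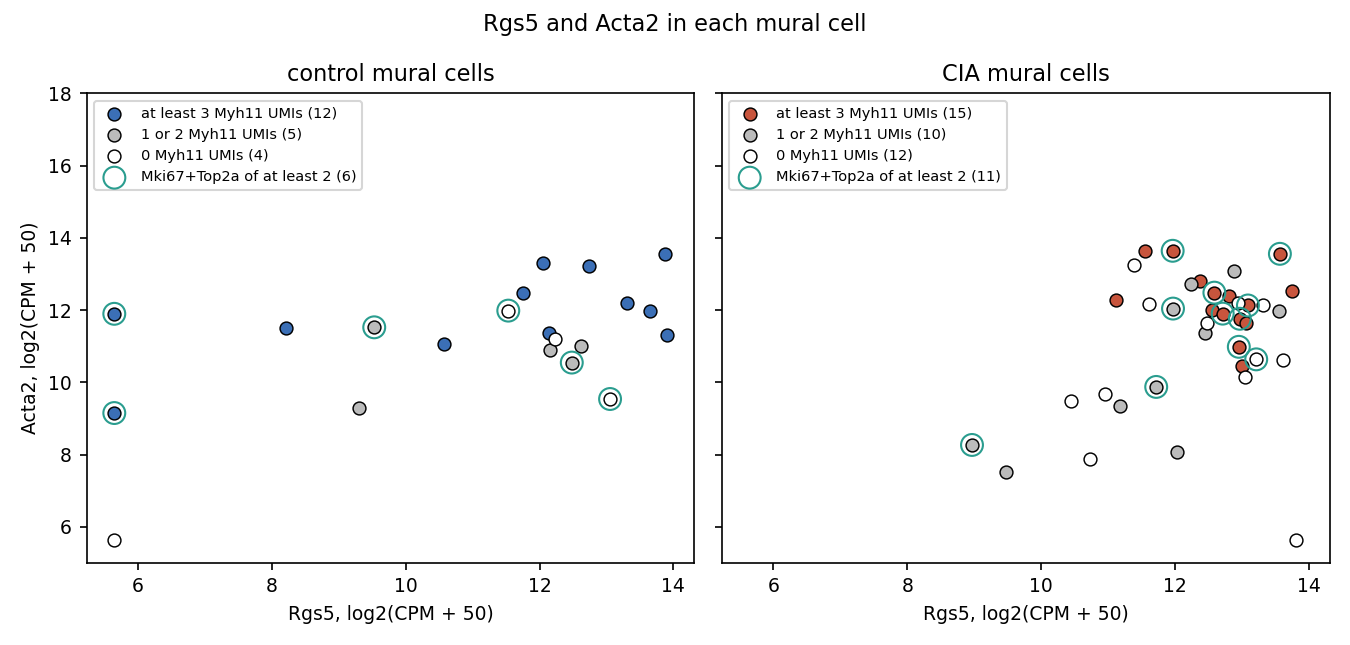
Rgs5 against Acta2 in each mural cell as log2(CPM + 50), control left and CIA right, with fill for the Myh11 class and a ring for cells with at least 2 UMIs of Mki67 and Top2a together (6 control, 11 CIA). Most cells had both genes, and 3 control cells had 0 Rgs5 UMIs, of which 1 also had 0 Acta2 UMIs.

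Some cells that met the rule carried much RNA of another type. Cells are numbered here within each library. Fibroblast markers held a median of 0.826% of UMIs per control mural cell and 0.767% per CIA mural cell, but 6.64% in control cell 9, 5.25% in control cell 14 and 3.93% in control cell 10. Fibroblasts themselves held 6.12% and 6.67%, a share that their choice by Pdgfra, Lum and Dpt raises in part. Control cell 14 reached the limit with 5 Kcnj8 UMIs alone, had 0 UMIs of Rgs5, Myh11 and Acta2, and held 673 Lum UMIs. Control cell 9 reached it with 5 Myh11 UMIs, had 0 of Rgs5 and held 331 Dcn UMIs. In these 2 cells the markers of the label were thus few or absent. In CIA cell 20, granulocyte markers held 32.8% of UMIs, with 1334 of S100a9, and it was the cell called a doublet. CIA cell 24 held 97 Lyz2 UMIs and 3.30% macrophage marker UMIs. Endothelial markers held at most 0.173% and 0.132% of UMIs per mural cell, against 0.632% and 0.713% over endothelial cells, a share that the endothelial limit of the rule holds down. Of the 11 endothelial markers, 7 had UMIs in control and 5 in CIA mural cells, 2 in at least 25% of cells of each library. Among those the rule did not use, Kdr, Cldn5 and Vwf were at 0 in both libraries. Egfl7, Esam, Flt1 and Eng had UMIs in both, and Tie1 in control only. Comparisons below are given with and without these 5 cells where they matter.

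Between CIA and control mural cells, 808 genes had at least 100 UMIs over both sums. By the size rule 21 of them (2.6%) were higher in CIA and 20 (2.48%) were lower. The same rule called 0.392% higher and 1.54% lower in endothelial cells, 0.765% and 3.62% in fibroblasts, 0.781% and 3.36% in macrophages, and 0.801% and 4.34% over all non-mural cells, where the sums were deeper. With UMIs in at least 10 mural cells and a call that held without each gene's top cell, 1.86% were higher and 1.98% lower. The median ratio of all 808 genes was 0.07 on the log2 scale. Without the 5 cells rich in RNA of other types, 20 genes were higher and 10 lower, of which 11 and 8 were among those called with all cells. Without the cells with Mki67 and Top2a UMIs, described with the cell cycle genes, 8 were higher and 11 lower.

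The contractile program was at like levels in both libraries. Of 13 measured contractile genes, 0 were higher and 0 lower in CIA, with a median log2 ratio of 0.09, which was -0.09 without the 5 cells rich in other RNA and -0.03 without the cells with Mki67 and Top2a UMIs. The CIA to control ratio was 1.17 (1.06 to 1.28) for Acta2, 1.00 (0.92 to 1.10) for Tagln, 1.09 (0.98 to 1.21) for Myl9 and 1.3 (0.99 to 1.71) for Des. These intervals exclude a 2-fold difference between the 2 sums, while the spread between animals is unknown. Per cell, the whole list held from 0.354% through 2.16% to 7.85% of UMIs in control and from 0.682% through 2.41% to 5.81% in CIA, so the libraries overlapped throughout. Members went both ways. Actg2 stood at 418 CPM in control and 631 in CIA, with 93 and 179 UMIs, and was not called. Some members of mature smooth muscle were sparser in CIA but too few for the rule. Cnn1 had 36 UMIs in control and 19 in CIA, a ratio of 0.41 (0.22 to 0.74). Pln, phospholamban, the inhibitor of the calcium pump, had 22 and 4 UMIs, in 5 and 2 cells. Among the summed genes, Rgs5 had a ratio of 1.31 (1.21 to 1.43) and Myh11 of 0.99 (0.77 to 1.28).

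Pericyte genes were higher in CIA by several members. Of 8 measured pericyte genes 3 were higher and 0 lower, and their median log2 ratio was 0.92. Cspg4, the NG2 proteoglycan, had 23 UMIs in 10 of 21 control cells and 92 UMIs in 27 of 37 CIA cells. Its ratio was 3.14 (1.97 to 5.20), against 1.21 in fibroblasts. In endothelial cells it was 1.47, with 41 and 39 UMIs, too few for the rule. Macrophages were also called higher for Cspg4, with 73 and 406 UMIs and a ratio of 2.74 (2.13 to 3.57). Mcam, an adhesion molecule of pericytes and endothelium, had a ratio of 2.37 (1.68 to 3.40), and Foxs1, a forkhead transcription factor of pericytes, one of 2.31 (1.52 to 3.59). Mcam had 1.44 in endothelial cells and 0.79 in fibroblasts. Foxs1 had 1.12 in fibroblasts, and 3.00 (1.65 to 5.62) in endothelial cells on only 18 and 35 UMIs. Of the rest, Cox4i2 had 1.96 (1.59 to 2.42), Higd1b 1.84 (1.44 to 2.35), Rgs4 1.76, Pdgfrb 1.48 (1.01 to 2.19) and Ndufa4l2 0.99, which did not pass. Gjc1 (connexin 45), a gap junction gene of vascular muscle outside the list, was higher with 2.44 (1.58 to 3.88). Per cell, the pericyte list held a median of 0.342% of UMIs in control and 0.633% in CIA.

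These calls depended on which cells were counted. Without the cells rich in RNA of other types, 2 of 8 measured pericyte genes, Cspg4 and Cox4i2, were higher: the ratio of Cspg4 was 2.64, and those of Mcam, 2.06, and Foxs1, 2.00, came with intervals reaching below 1.5-fold. Without the cells with Mki67 and Top2a UMIs, Cspg4 had a ratio of 2.38, Foxs1 of 2.39 and Mcam of 1.72, all with intervals reaching below 1.5-fold, and 0 of 4 measured members passed. Members under 100 UMIs, which the size rule does not compare, lay on both sides. Gucy1a3, a subunit of the nitric oxide receptor, had 12 and 48 UMIs, with a ratio of 3.14 (1.64 to 6.50), and Gja4 (connexin 37) had 15 and 59, with 3.09 (1.73 to 5.86). Ebf1 had 20 and 19 UMIs, with 0.75, Anpep 33 and 34, with 0.81, and Tbx2 8 and 9, with 0.88. Control mural cells had deeper libraries. After thinning to 4000 UMIs with a sum of at least 3, the ratios were 1.99 for Cspg4, 1.68 for Foxs1 and 1.4 for Mcam, none of them called, Higd1b was the only call among 9 measured members, and the median log2 ratio of the list was 0.67. With fibroblast markers at most 5% of UMIs, or with a sum of at least 8, Cspg4 was the only call among 8.

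**Figure D4:**
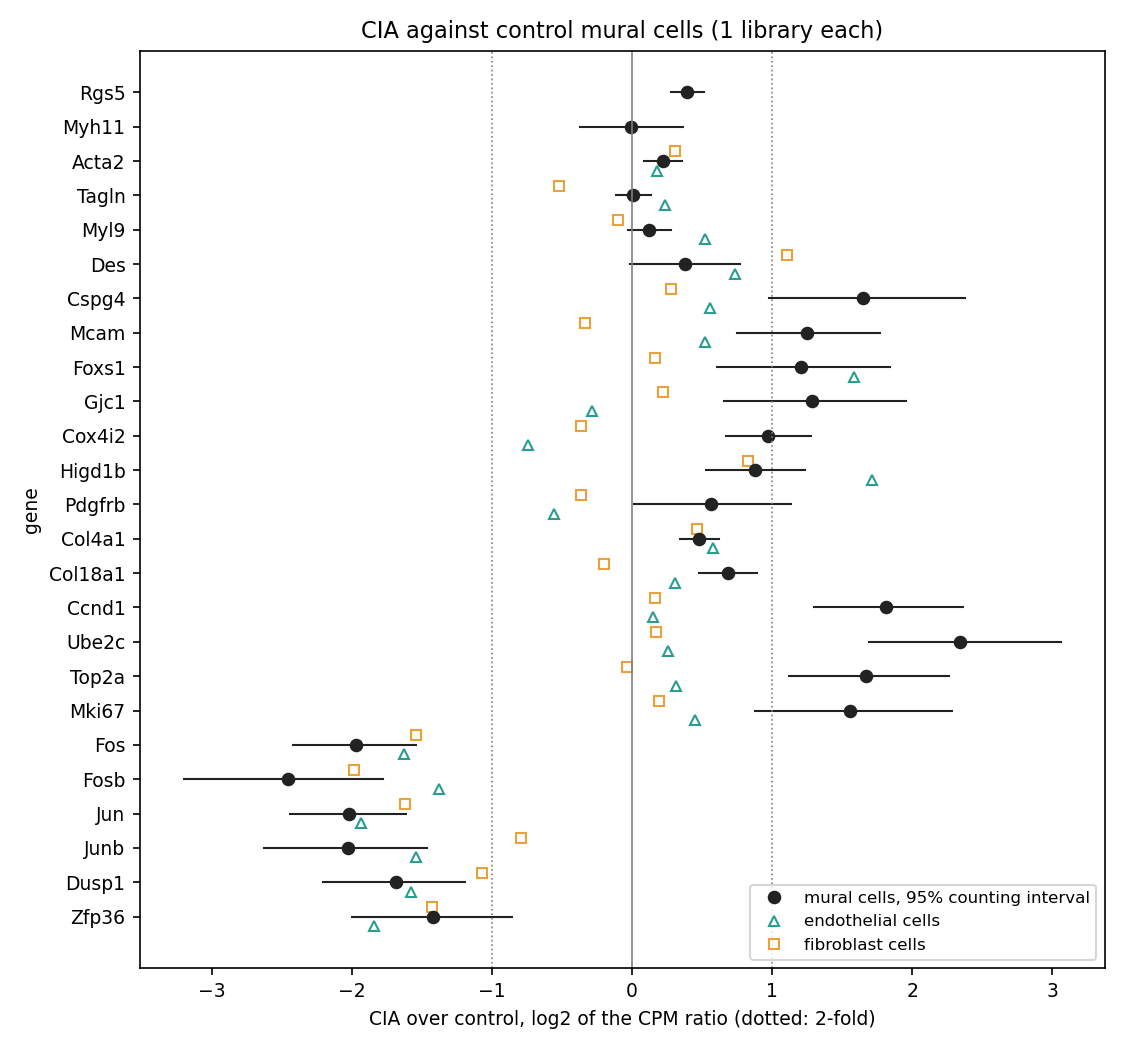
Log2 of the CIA to control CPM ratio in mural cells (circles, with 95% counting intervals) and in endothelial cells and fibroblasts (open symbols, not drawn for Rgs5 and Myh11, which the rule limits there). Contractile genes lay near 0, Cspg4, Mcam, Foxs1 and cell cycle genes above the 2-fold line, and the 6 immediate early genes below its negative.

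Several cell cycle genes were higher in CIA. Ube2c, a ubiquitin-conjugating enzyme of mitosis, had 22 UMIs in 6 control cells and 142 in 13 CIA cells, a ratio of 5.07 (3.22 to 8.35). Top2a had a ratio of 3.19 (2.18 to 4.79) and Mki67 of 2.94 (1.84 to 4.88), so 3 of 5 measured cycle genes were higher and 0 lower. In the control library 1 cell held 26 of 34 Top2a UMIs (76.5%) and 1 cell 13 of 22 Ube2c UMIs (59.1%). Without each gene's top cell in each library, few control UMIs were left and the intervals were wide. The ratios were then 11.2 (5.49 to 26.7) for Top2a, 9.78 (4.96 to 22.0) for Ube2c and 3.5 (1.98 to 6.60) for Mki67. Prc1, Hist1h1e and Cks2, also genes of dividing cells, had ratios of 3.64, 3.41 and 2.95. In endothelial cells and fibroblasts Ube2c had ratios of 1.19 and 1.13. Ccnd1 (cyclin D1), which drives entry into the cycle, had 38 and 170 UMIs and a ratio of 3.51 (2.46 to 5.14), which was 3.43 without the cells with Mki67 and Top2a UMIs.

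The shares of mural cells with such RNA had overlapping intervals in the 2 libraries. At least 2 UMIs of Mki67 and Top2a together were seen in 6 of 21 control mural cells (28.6%, 11.3 to 52.2) and in 11 of 37 CIA mural cells (29.7%, 15.9 to 47.0). Endothelial cells had 15.7% and 13.8%, fibroblasts 12.6% and 13.5% and macrophages 7.14% and 6.79%. The mural shares were the highest of the 4 in both libraries. After thinning to 4000 UMIs the shares were 23.8% and 27.0% in mural cells, 8.74% and 9.65% in endothelial cells, 7.08% and 8.38% in fibroblasts and 2.91% and 3.76% in macrophages. At this equal depth the control interval (8.22 to 47.2) overlapped that of endothelial cells while the CIA interval (13.8 to 44.1) did not. The cycle list held 0.407% of the UMIs of the 6 control cells and 0.768% of those of the 11 CIA cells. These amounts are a description, since Mki67 and Top2a chose the cells and are on the list. Control cell 9, rich in fibroblast RNA, was among the 6 and held 4 cycle list UMIs of 11589 UMIs in all. CIA cells 23, 25 and 32 held 201, 137 and 157 of the 821 cycle list UMIs of the CIA cells.

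The cells with cycle RNA also held contractile RNA. By CPM of the sums, Tagln was lower in them than in the other mural cells of both libraries, with no test between cells. Acta2 was lower in control, while in CIA the 2 sums were close and their order rested on 1 cell. Acta2 had UMIs in all 6 control and all 11 CIA cells, at 2520 against 3676 CPM in control and 3753 against 3944 in CIA. The small CIA difference leans on CIA cell 23, which held 31054 UMIs in all and 8 of Acta2. Per CIA cell, the Acta2 median went the other way, at 26 against 19 UMIs, with median depths of 7939 and 6004 UMIs. Tagln was at 2418 against 4984 CPM in control and 3116 against 4883 in CIA. Of the summed genes, which the choice of cells fixes in part, Rgs5 was at 2066 against 5120 CPM in control and 5446 against 5534 in CIA. Myh11 was at 337 against 583 and 711 against 379. Per CIA cell, the Rgs5 median was 51 against 34 UMIs, and CIA cell 23 held 14. The control values lean on cells 9 and 18, which held 11589 and 24965 UMIs in all and 0 of Rgs5. Control cell 9, rich in fibroblast RNA, had 6 Acta2 UMIs and 1 of Tagln. Cspg4 was seen in 10 of these 11 CIA cells and in 17 of the other 26.

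**Figure D5:**
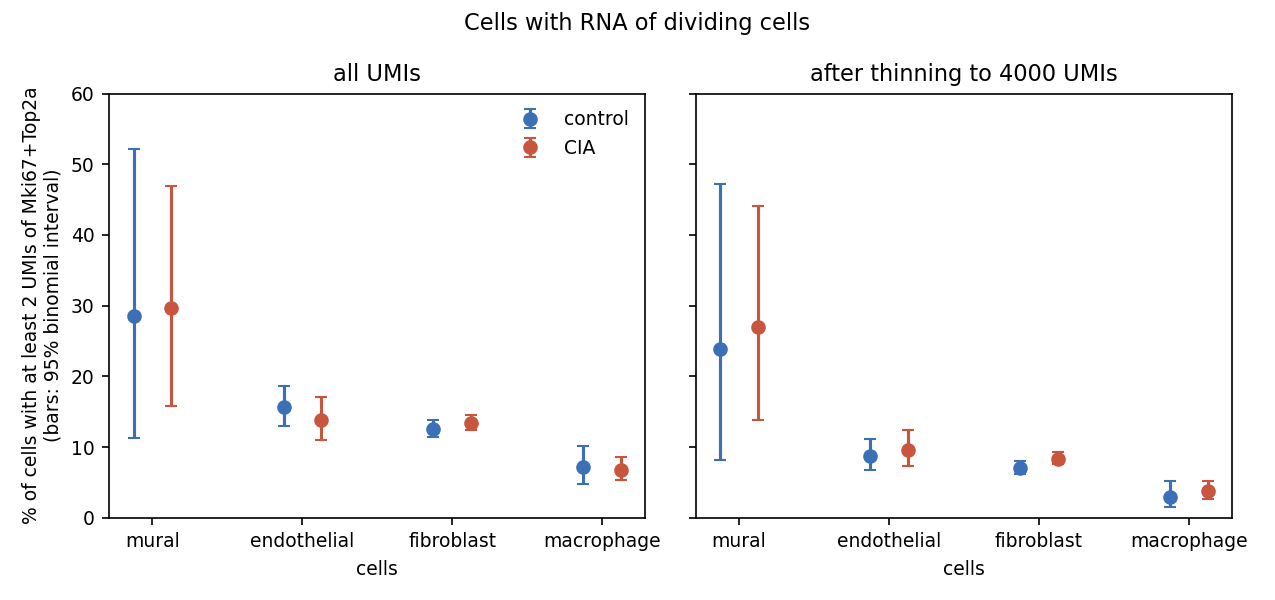
Percent of cells with at least 2 UMIs of Mki67 and Top2a together, in mural, endothelial, fibroblast and macrophage cells of each library, with all UMIs (left) and after thinning to 4000 UMIs per cell (right). Bars are 95% binomial intervals, and the mural shares of 28.6% and 29.7% become 23.8% and 27.0% after thinning.

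Immediate early genes, the transcription factors and feedback regulators that cells switch on within minutes of stimulation, were lower in CIA. All 6 measured members were lower, with a median log2 ratio of -2.0. Fos had 182 UMIs in 20 of 21 control cells and 59 in 21 of 37 CIA cells, a ratio of 0.25 (0.19 to 0.34). Fosb had a ratio of 0.18, Jun of 0.25, Junb of 0.24, Dusp1, a phosphatase that ends MAP kinase signalling, of 0.31 and Zfp36, which speeds decay of cytokine mRNA, of 0.37. The list held from 0.0851% through 0.379% to 1.52% of UMIs per control cell and from 0.0440% through 0.151% to 0.550% per CIA cell. The cells of the 2 libraries overlapped, with the control cells extending higher. Without the cells rich in other RNA, 5 of 5 measured members were lower.

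These genes were lower in other cell types of the CIA library too: all 6 were called in endothelial cells and in macrophages, and 5 of 6 in fibroblasts, where Junb had a ratio of 0.58. Over all non-mural cells 4 of 6 were called, and Junb, with 0.50, and Dusp1, with 0.53, were not. Endothelial ratios were 0.32 for Fos, 0.26 for Jun and 0.28 for Zfp36, and fibroblast ratios 0.34, 0.33 and 0.37. Over the list, endothelial cells held 1.01% and 0.365% of UMIs and macrophages 1.87% and 0.661%. Of the 20 genes lower in CIA mural cells, 10 were also lower in endothelial cells, 8 in fibroblasts and 9 in macrophages. Over all measured genes, 1.54%, 3.62% and 3.36% were lower there. Of the 21 higher genes, 19, 21 and 18 were measured in those cells, and 1, 0 and 1 were also higher. Over all measured genes, only 0.392%, 0.765% and 0.781% were higher there. In macrophages 2 of the 21 were lower. What sets the 2 libraries apart other than treatment cannot be told apart from the group. Nfkbia, an inhibitor of NF-kB, had a ratio of 0.32 (0.21 to 0.48) and Cyr61 (also Ccn1), a matricellular target of YAP, of 0.39. The genes listed only as LOC108348108 and AC134224.3 were lower too, with ratios of 0.17 and 0.49, and had 0.14 and 0.69 in endothelial cells. The adhesion genes Icam1 and Vcam1 had 21 and 14 UMIs in control mural cells and 3 and 2 in CIA.

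Genes of fibroblasts formed the other lower group, and they rested on few cells. Lum had 1244 control and 325 CIA UMIs, a ratio of 0.21 (0.18 to 0.23), and the 3 control cells rich in fibroblast RNA held 71.3% of the control UMIs. They held 93.1% of Lbp, 91.7% of Mmp3, 78.6% of Dcn and 72.2% of Gpx3. Without the 5 cells rich in other RNA the ratio was 0.58 for Lum and 1.08 for Dcn, neither of them called. Lbp and Mmp3 then lay in the opposite direction. Dpt (dermatopontin) and Igfbp6 rested less on these 3 cells, which held 20.4% and 0.649% of their control UMIs. Both still leaned on a single control cell outside these 3. Dpt had UMIs in only 6 control cells, with 72 of 98 in 1 cell. For Igfbp6, seen in 14 control cells, 1 cell held 37.7% of the control UMIs.

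Myeloid genes were higher in CIA, again with few cells in part. S100a8, S100a9 and Camp had ratios of 44.0, 67.1 and 87.6 (24 to 728 for Camp), and 97.7%, 97.6% and 98.2% of their CIA UMIs lay in cell 20. Lyz2 is given as a description, since the rule holds it under 20000 CPM. The same limit applied to the endothelial and fibroblast references. The highest mural cell stood at 1296 CPM in control and 17798 in CIA. Lyz2 was spread over all 37 cells, with a median of 10 UMIs in CIA and 6 in control. Its ratio was 2.69 (2.24 to 3.26), or 2.20 without the cells rich in other RNA. In endothelial cells and fibroblasts its ratios were 1.91 and 1.55, above 1 but short of the 2-fold rule. The mural level of 669 and 1802 CPM lay below or near the 896 and 1711 CPM of endothelial cells. Macrophages, the main source of Lyz2 and chosen without that limit, stood at 54632 and 67198 CPM.

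A few further genes were higher in CIA. Igfbp5, a binding protein of insulin-like growth factors, stood at 1297 and 2708 CPM, a ratio of 2.09 (1.82 to 2.40), with 1.27 in endothelial cells and 0.99 in fibroblasts. Without the cells rich in other RNA its ratio was 1.90 and no longer passed. Wdr1, an actin-disassembly factor, had 2.33 (1.5 to 3.71) and Tuba1b, an alpha tubulin, 2.05 (1.71 to 2.47). The collagenase Mmp13 had 2.39 (1.82 to 3.16), but 189 of its 219 CIA UMIs came from 1 cell. Among 5 measured basement membrane genes 0 were called, with a median log2 ratio of 0.48: Col4a1 had 1.40 (1.27 to 1.54), beside 1.49 in endothelial cells, and Col18a1 1.60 (1.39 to 1.85). Among 13 fibrillar matrix genes 1, Postn (periostin), was lower with 0.33, and 57.7% of its control UMIs lay in the 3 fibroblast-rich cells. The interferon, complement, heat shock and MHC class II lists had 1, 3, 5 and 1 measured members and no calls. Id3, a BMP target, stood at 1113 and 726 CPM, with a ratio of 0.65 (0.54 to 0.79).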

How the data were processed

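Single-cell RNA was measured in 2 libraries of rat cartilage, 1 control and 1 CIA. The authors deposited raw UMI counts per gene and cell. The build, per the submitters' processing notes, was mRatBN7.2, and per the labels' protocols tissue was dissociated with TrypLE and libraries were made with a Chromium 3' kit. For the aligner, counter and cell calling: not given in the sources used here. Cells and gene lists were chosen with earlier results of these data known. UMIs were summed over the mural cells of each library, scaled to CPM over the 18147 genes listed for both, and compared as ratios with exact conditional 95% intervals. A gene was measured with at least 100 UMIs over both sums, and called with a ratio of at least 2-fold and an interval wholly beyond 1.5-fold. Against a sum of 0 the floor was 3 counts. There is no test, since each group has 1 library. Shares have exact binomial (Clopper-Pearson) intervals. Of 491 list genes 467 were found, 7 under another symbol. Named genes were list members, the 15 leading genes, the 10 largest ratios each way between mural cells with at least 3 and with 0 Myh11 UMIs, and the 10 largest ratios each way that passed also without the top cell and with UMIs in at least 10 cells. Others were chosen after their values were seen. Tools were Python 3.11.15, numpy 2.4.6, scipy 1.17.1, scanpy 1.11.5, and edgeR 4.0.16 for TMM factors. Promoter windows came from RefSeq, build GRCr8. The ratio step was tested on simulated counts.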

Additional observations from a re-analysis of the deposited data

Results flagged for a closer look

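Camp, a granulocyte antimicrobial gene, had a CIA to control ratio of 87.6 in mural cells and was lower in CIA in macrophages, at 49.0 and 18.9 CPM. Cell 20 held 98.2% of its CIA mural UMIs. Cks2, a regulator of cyclin-dependent kinases, had a ratio of 2.95 in mural cells and was lower in macrophages, at 301 and 84.8 CPM. Both stand out because the direction differs between cell types. Neither difference was tested.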

How the results depend on the processing

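No paired analysis was possible because each group has 1 library. Against 21 genes higher and 20 lower in CIA, a sum of at least 3 UMIs gave 38 and 35, a minimum of 50 UMIs gave 40 and 35, and a minimum of 200 gave 8 and 8. Fewer genes were lower with a sum of at least 8 UMIs (10), after thinning (13), with no endothelial UMI (13), with fibroblast markers at most 5% of UMIs (11) and without each gene's top cell (11, where the minimum of 100 UMIs was applied again to the remaining cells and left 653 genes measured). Chosen after seeing the data, leaving out cells rich in other RNA gave 10 lower, and leaving out the cells with Mki67 and Top2a UMIs gave 8 higher and 11 lower. With TMM factors 16 were higher and 21 lower. Of 31 called genes named, 27 stayed called with TMM factors, 19 without cells rich in other RNA and 16 of the 29 that could be compared without the cells with cycle RNA. Log2 ratios turned positive with a sum of at least 8 (Lbp 1.57, Mmp3 1.79, Dcn 0.054), after thinning (Lum 0.40, Lbp 1.30, Mmp3 1.64, Igfbp6 0.049, Dcn 1.46), with no endothelial UMI (Dpt 0.50), with fibroblast markers at most 5% (Lbp 1.64, Mmp3 1.77, Dcn 0.031) and without cells rich in other RNA (Lbp 1.60, Mmp3 1.85, Dcn 0.11). The cause was not tested. Against 21 control cells, 18 entered with a sum of at least 8, 22 after thinning and 16 with no endothelial UMI. With fibroblast markers at most 5% there were 19, and without cells rich in other RNA 18. Control cell 6, with 2.89% fibroblast marker UMIs and 1 endothelial UMI, was among those left out by the setting of no endothelial UMI. At least 1 Myh11 UMI was seen in 81.0% of control and 67.6% of CIA mural cells. With 21 and 37 cells, genes under 100 UMIs could not be compared.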
